A study of Homo sapiens with 2 samples.

Results

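The AP-1 and immediate early transcription factors were read on 2 Affymetrix expression arrays of LN229, an established human glioblastoma cell line. They are 10 genes, FOS, FOSB, FOSL1, FOSL2, JUN, JUNB, JUND, ATF3, EGR1 and IER3, and their members were all probe sets annotated to exactly 1 of these symbols, which gave 24 of the 54675 probe sets. A probe set is a group of short probes for the same stretch of transcript, and its signal is in arbitrary units. One array held RNA of LN229 cells with the plasmid pSUPER.neo-miR-127-3p, labelled as miR-127-3p overexpression, and the other RNA of LN229 cells with pSUPER.neo without the microRNA, labelled as control overexpression. Both cultures grew in DMEM with serum. With 1 array per group there was no test between the groups, no p-value and no replicate check of any difference. The labels give no culture time, no serum step before harvest, and no statement on whether the cells were a clone or a pool.

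AP-1 is a dimer of basic leucine zipper (bZIP) proteins of the FOS and JUN families, which binds short DNA sites in promoters and enhancers. JUN proteins pair with each other or with FOS proteins, while FOS proteins need a JUN partner, so the makeup of the dimer depends on which members a cell makes. FOS, FOSB, JUN, JUNB, ATF3, EGR1 and IER3 belong to the immediate early genes, whose transcripts appear shortly after growth factors, serum or stress and are short-lived. FOSL1 and FOSL2 respond later and depend in part on earlier AP-1, and in glioblastoma FOSL1 and FOSL2 are known for their place in mesenchymal expression programmes.

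The microRNA and 4 promoters are shown because they are the agent of the comparison and the upstream windows of members that differed in opposite directions or little. All sequences are from RefSeq on GRCh38.p14, 5′ to 3′. Capitals in the microRNA mark the seed, bases 2 to 8, and no other mature name among 2545 in the table had this seed.
hsa-miR-127-3p, chr14:100883035-100883056, plus strand: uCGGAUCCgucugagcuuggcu
The promoter windows are the 250 bases before the start of the gene, and capitals there mark matches to the motifs searched on either strand. These were TGACTCA with its reverse complement, then TGACGTCA by itself, then TGACATCA on each strand, then the core TGACGT on each strand, and the CArG box by name. TGACTCA is the classic AP-1 site, TGACGT is the core of the site of CREB and ATF proteins and also lies within TGACGTCA, and the CArG box is the site of serum response factor.
FOS promoter, chr14:75278578-75278827, plus strand: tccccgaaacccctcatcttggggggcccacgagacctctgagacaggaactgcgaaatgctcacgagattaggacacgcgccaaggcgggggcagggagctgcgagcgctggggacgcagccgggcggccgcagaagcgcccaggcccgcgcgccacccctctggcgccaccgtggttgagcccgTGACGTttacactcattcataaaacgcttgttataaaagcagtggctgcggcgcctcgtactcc
EGR1 promoter, chr5:138465229-138465478, plus strand: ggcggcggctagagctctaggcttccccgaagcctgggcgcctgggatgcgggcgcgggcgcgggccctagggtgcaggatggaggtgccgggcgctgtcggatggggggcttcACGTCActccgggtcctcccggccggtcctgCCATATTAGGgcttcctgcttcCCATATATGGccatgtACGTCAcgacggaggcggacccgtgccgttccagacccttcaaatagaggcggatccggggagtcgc
FOSL2 promoter, chr2:28392608-28392857, plus strand: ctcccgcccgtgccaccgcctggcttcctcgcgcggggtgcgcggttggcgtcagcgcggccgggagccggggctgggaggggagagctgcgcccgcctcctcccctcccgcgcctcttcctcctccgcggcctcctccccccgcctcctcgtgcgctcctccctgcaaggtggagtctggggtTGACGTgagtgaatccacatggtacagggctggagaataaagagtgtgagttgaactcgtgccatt
JUN promoter, chr1:58784048-58784297, minus strand: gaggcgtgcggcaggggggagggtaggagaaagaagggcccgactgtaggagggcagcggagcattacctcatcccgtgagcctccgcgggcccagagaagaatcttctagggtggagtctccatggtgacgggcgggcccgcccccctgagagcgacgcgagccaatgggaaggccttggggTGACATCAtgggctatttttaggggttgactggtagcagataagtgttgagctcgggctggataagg

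A promoter was listed for 8 of the 10 genes, FOSL1 and IER3 being the others. TGACGT stood in the window of 5 of these 8, FOS, FOSB, FOSL2, JUND and EGR1, against 7.1% of all 35116 promoters. In FOS it lay 64 to 59 bases before the start and in FOSL2 66 to 61 bases before it. EGR1 alone of the 8 held a CArG box in its 250-base window, against 1.16% of all promoters. The 2 matches lay at 105 to 96 and at 83 to 74 bases before the start. Bases farther upstream were not searched for any motif, so a gene without a match here may hold one there. TGACATCA lay 67 to 60 bases before the start of JUN and in the first of 2 windows of ATF3, against 2.37% of all promoters. TGACGTCA was in JUND alone of the 8, against 1.65%, and TGACTCA was in none of the 8, against 4.2%. These matches are descriptions of the letters, not of bound sites. The TGACGT core stood in FOS and EGR1, which gave lower signals with miR-127-3p, and in FOSL2, which gave higher ones. It also stood in JUND and FOSB, whose signals are given below. A link between the core and these directions was not tested.

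The arrays differed well beyond these genes, and the precision is set by their number. Median signals were 83.3 (miR-127-3p) and 93.9 (control), and these medians serve below as the level under which a signal is called dim. Over the 2 brightest probe sets of 5974 genes, the log2 ratio of a probe set had an SD of 0.41 about its gene, and a difference between 2 probe sets one of 0.57, figures that hold no variation between cultures. Of 12 glial and glioma markers 9 were above the signal filter described below, with S100B, a calcium-binding protein of glia, at 4559 (miR-127-3p) and 5865 (control) and VIM, vimentin, at 48866 and 45584, while GFAP, the defining astrocyte filament, was dim on both arrays with 14.9 and 34.2. Of these 9, 1 was at least 2-fold higher, SLC1A3, a glutamate transporter, with 2689 against a dim 73.9 and at least 28.1-fold, and 2 were lower, SOX2, a stem cell factor, with 1656 against 3893 (2.37-fold) and NES, nestin, with 893 against 1804 (2.04-fold). That is 11.1% higher and 22.2% lower of a short list, beside 5.06% and 8.67% of all genes above the filter. SLC1A3 passed the filter through its miR-127-3p signal alone, so its higher direction followed from passing. Of 11 matched epithelial markers 9 were brighter on the control array, their summed signal was 7464 (miR-127-3p) and 85909 (control), and CLDN3, CLDN7 and GRHL2 were dim on both arrays. Also below the filter were CDH1 (7.05 against 775, at least 9.28-fold lower) and CLDN4 (22.4 against 201, at least 2.42-fold lower). KRT5 (88.3 against a dim 4.52) and GRHL2 were the 2 brighter with miR-127-3p. All 5 epithelial markers that passed the filter were past 2-fold on the lower side: KRT19 (5.64 against 12674, at least 151-fold), EPCAM (30.2 against 9181, at least 110-fold), ESRP1 (6.45 against 1136, at least 13.6-fold), KRT8 (307 against 16926, 55.4-fold) and KRT18 (6906 against 44863, 6.55-fold). Over all 11985 genes above the filter 8.67% were lower. KRT19, EPCAM and ESRP1 were dim with miR-127-3p and passed the filter through their control signal alone, so their lower direction followed from passing. KRT8 and KRT18 were above the medians of both arrays. The summed signals were 278 and 213 for 5 leukocyte markers, 350 and 339 for 4 endothelial markers and 10667 and 9614 for 6 fibroblast markers, and the leukocyte marker PTPRC was dim on both arrays. The epithelial markers thus differed between the same 2 arrays as the values below, and their part in those values was not tested. Nor was it tested if both cultures were of the same cell line, so each ratio below is between these cultures, and an effect of the microRNA cannot be told apart from other differences between them. In such bulk RNA, fewer cells of a type and less RNA per cell cannot be told apart.

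The members did not differ as a block: FOS, EGR1 and IER3 were lower with miR-127-3p, FOSL1 and FOSL2 were higher, and the JUN genes and ATF3 were closer to the median gene. A log2 ratio here is log2(signal + 1) of the miR-127-3p array minus that of the control array, less 0.01, the median over genes, and folds are antilogs of its size. Paired signals are given with the miR-127-3p array first. The filter kept probe sets whose 2-array mean of log2 values exceeded the median of all probe sets, a signal of about 83.0, and each gene was represented by its brightest probe set. By that rule 3 of the 10 genes were at least 2-fold lower, against 8.67% of 11985 genes above the filter, and 2 were at least 2-fold higher, against 5.06%. Over all 19775 named genes, with the same centring and no filter, the shares were 17.8% lower and 12.3% higher. The higher pair was FOSL1 and FOSB, and FOSB was the single gene below the filter, so that 1 of the 9 genes above it was at least 2-fold higher. The median log2 ratio was -0.06 over the 10 genes and -0.28 over the 9, beside 0 over all genes by construction, and the median of the 10 was above 0 with quantile normalization (0.015), with scaling to the 75th percentile (0.03) and without probe sets that carry a cross-match suffix (0.18, 7 genes). Of 24 probe sets 18 passed the filter, and 4 of these were 2-fold or more lower and 1 was 2-fold or more higher, where 8.02% and 5.27% of all probe sets above the filter were. The other 6 were dim on both arrays.

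**Figure D1:**
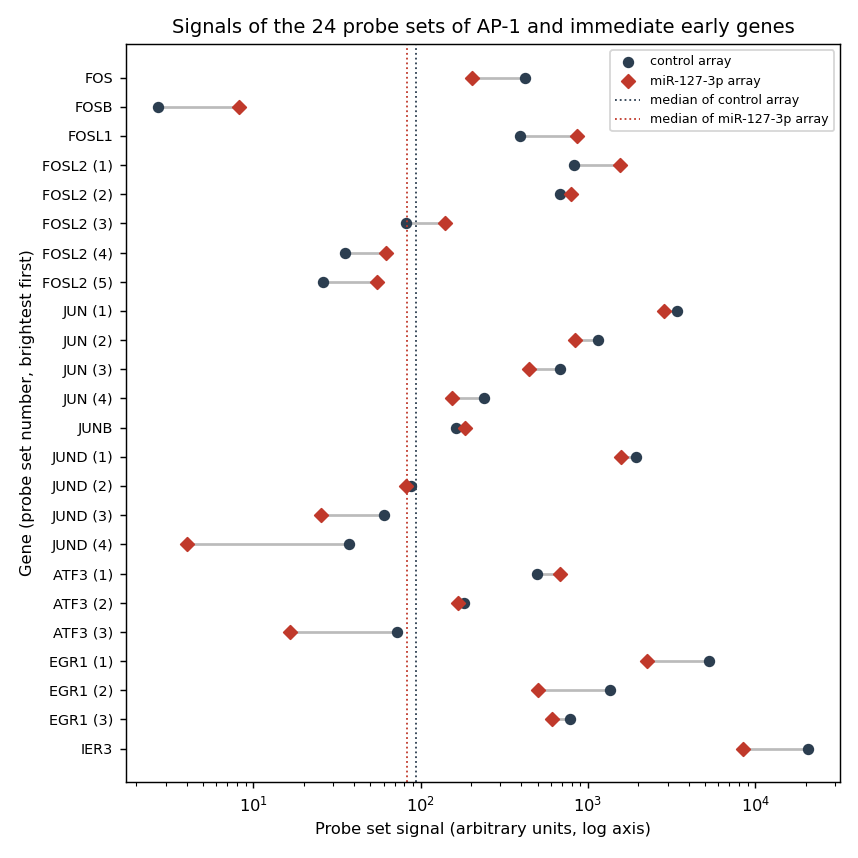
Signal of each of the 24 probe sets on the control array (circles) and the miR-127-3p array (diamonds), in arbitrary units on a log axis, with the median of each array as a dotted line; probe sets of a gene are numbered from the brightest. FOS, EGR1 and IER3 lie to the left with miR-127-3p, for IER3 8458 against 20672, and FOSL1 and all 5 FOSL2 probe sets lie to the right.

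Within the FOS family, whose proteins need a JUN partner, FOS itself and the FOS-like genes lay on opposite sides. FOS, the prototype immediate early gene, gave signals of 203 (miR-127-3p) and 422 (control). The miR-127-3p array was thus the lower of the pair, by 2.09-fold, a log2 ratio of -1.06 at its only probe set, and 7.81% of genes had a lower ratio. The FOS ratio was the closest to the 2-fold limit of the 3 lower members, and it was -0.95 with quantile normalization, -0.98 with scaling to the 75th percentile and -0.96 with a pseudocount of 32. FOSL1, which encodes Fra-1, gave 865 (miR-127-3p) and 393 (control). Here the miR-127-3p array was the higher, by 2.18-fold, a log2 ratio of 1.12 at its only probe set, and 96.1% of genes had a lower ratio.

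FOSL2, which encodes Fra-2, was read by 5 probe sets, and every one of them was brighter with miR-127-3p. The brightest gave 1564 (miR-127-3p) and 822 (control), a log2 ratio of 0.92 and 1.89-fold, just under the 2-fold limit. The second brightest gave 790 and 682, a ratio of 0.20, so the bright probe sets of FOSL2 differed by more than the SD of 0.57 for 2 probe sets of a gene. The third gave 139 against a dim 81.4 and was at least 1.46-fold higher, taking the control array's median as the floor. The last pair was dim on both arrays, with 62.1 against 35.2 and 54.9 against 26.0. FOSB, a FOS paralogue induced by strong or repeated stimulation, gave 8.24 and 2.70 at its only probe set. Both signals were far under the array medians, so no fold is given for it, and its place among the higher members rests on the pseudocount: its ratio was 1.31 with a pseudocount of 1 and 0.36 with 16.

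The FOS-like genes and FOS were far apart in their ratios. FOSL1 minus FOS came to 2.18 on the log2 scale and FOSL2 minus FOS to 1.98, where the spread of a difference between 2 probe sets of the same gene was 0.57 (SD). FOSL1 and FOSL2 differed by 0.21 in their ratios, less than that spread. For FOSL2 these values use its brightest probe set. Its second brightest, at 0.20, lay farther from FOSL1 than that spread and closer to FOS. The mean of its probe sets above the filter was 0.62. These differences compare ratios of the same pair of arrays and have no replicate.

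**Figure D2:**
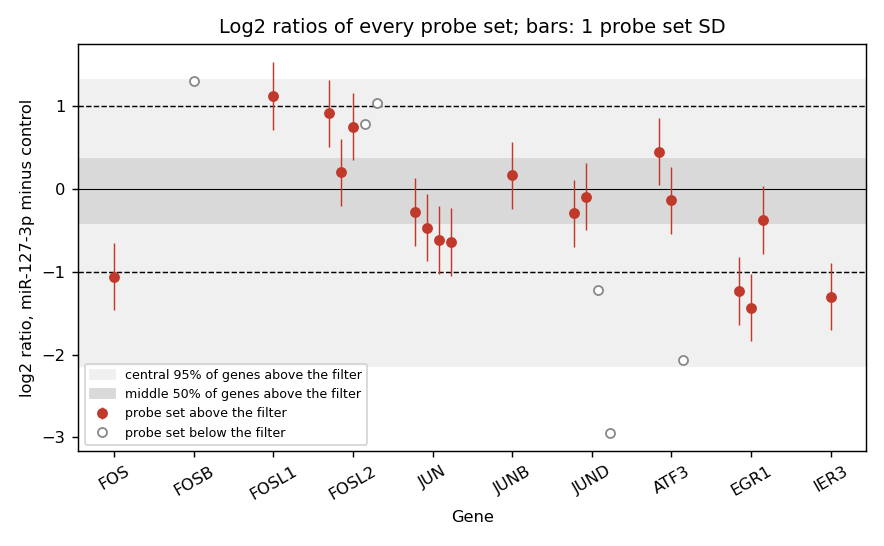
Log2 ratio (miR-127-3p minus control) of every probe set of the 10 genes; filled points with bars of 1 probe set SD (0.41) are above the filter, open points below it, the bands hold the middle 50% and the central 95% of 11985 genes, and dashed lines mark 2-fold. FOS, IER3 and 2 of 3 EGR1 probe sets lie under the lower line, FOSL1 above the upper one, and the open points of JUND and ATF3 are dim signals.

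The JUN family, which supplies the other arm of the dimer, stayed within 2-fold at each of its 7 probe sets above the filter. JUN, the main partner of FOS, gave 2843 (miR-127-3p) and 3417 (control) at its brightest probe set, a log2 ratio of -0.28. Its other 3 probe sets were also brighter in the control, with 836 against 1148, 446 against 679 and 154 against 238. All 4 ratios lay between -0.64 and -0.28, the larger of them at the dimmer probe sets and up to 1.56-fold. JUND, a JUN protein made at a steady level in many cells, gave 1581 and 1926 at its brightest probe set, a ratio of -0.30, which differed from that of JUN by 0.02. A second probe set of JUND, at 82.2 and 87.0, was just under the medians of both arrays, and the remaining pair was dim on both, at 25.5 against 60.4 and 4.04 against 37.4, so their larger ratios are not read as a change. JUNB, often a weaker activator than JUN, gave 183 and 162, a ratio of 0.17. None of the 3 genes was apart from the median gene by more than the probe set spread at its brightest probe set. The other 3 probe sets of JUN were apart from it by more than that spread. Only the dimmest of JUN, at -0.64, carries no cross-match suffix.

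ATF3, a stress-induced bZIP factor that can pair with JUN proteins, gave different answers at its probe sets. The brightest gave 680 (miR-127-3p) and 493 (control), a log2 ratio of 0.45. The second gave 166 and 182, a ratio of -0.14, and the third was dim on both arrays with 16.5 and 72.0. No direction is given for ATF3, since its probe sets above the filter lay on both sides of 0, and without probe sets that carry a cross-match suffix only the dim one remained.

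EGR1 and IER3, immediate early genes that are no AP-1 subunits, were lower with miR-127-3p. EGR1, a zinc finger factor induced through serum response factor, gave 2270 (miR-127-3p) and 5295 (control) at its brightest probe set. That is 2.35-fold lower, a ratio of -1.23. A second probe set gave 502 and 1349, or 2.70-fold lower, while the third gave 611 and 786, a ratio of -0.37. All 3 were thus brighter in the control, but the third differed from the others by more than the SD of 0.57. IER3, a stress- and growth factor-induced regulator of survival that is not a DNA-binding factor, gave 8458 (miR-127-3p) and 20672 (control) at its only probe set. It was 2.46-fold lower, a ratio of -1.30, and 5.49% of genes had a lower ratio. With EGR1 at its brightest probe set, the ratios of IER3 and EGR1 differed by 0.07 and those of EGR1 and FOS by 0.17. Both were under the spread of 0.57 for a pair of probe sets. The third EGR1 probe set, at -0.37, lay farther from IER3 and FOS than that spread. All 3 EGR1 probe sets and the IER3 probe set carry a suffix that marks possible cross-matching to other transcripts.

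The kinases and factors that act on these genes were past 2-fold about as often as all genes. Of 32 listed upstream kinases and regulators 27 were matched and above the filter, of which none was at least 2-fold higher, 3 were lower and 24 stayed within 2-fold, with a median log2 ratio of 0.04. The 11.1% lower stands beside 8.67% of all genes above the filter, and none higher beside 5.06%. RPS6KA3, the kinase RSK2 that acts below ERK, gave 734 (miR-127-3p) and 1696 (control), a ratio of -1.22, and its other probe set above the filter was at -0.90. MAP2K6, which activates p38, gave 382 and 856, a ratio of -1.17. MAPK8, which encodes the JUN kinase JNK1, was at -1.11 at its brightest probe set, but its 5 probe sets above the filter ranged from -1.18 to 1.14. SRF, the factor that binds the CArG box, gave 210 and 242, a ratio of -0.22. Its cofactors ELK1 and ELK4 each had probe sets on both sides of 0, from -0.38 to 0.53 and from -0.20 to 0.06. NAB1 and NAB2, corepressors of EGR proteins, were at -0.46 and -0.31. FBXW7 and COP1, ubiquitin ligase components that take part in JUN turnover, were at -0.23 and 0.10.

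Among 16 measured bZIP genes that can pair with AP-1 or compete with it, 1 was at least 2-fold higher, 1 lower and 14 stayed within 2-fold, with a median of 0.14. Each direction is 6.25% of the list, beside 5.06% higher and 8.67% lower over all genes. BATF, an AP-1 member known from lymphocytes that pairs with JUN proteins, gave 105 (miR-127-3p) and 562 (control), 5.35-fold lower. ATF5, a factor of the amino acid response, gave 315 and 116, 2.68-fold higher. Each was read by 1 probe set above the filter, and the dimmer signal of each, BATF with miR-127-3p and ATF5 in the control, was close to its array's median.

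Other immediate early genes also lay on both sides. Of 26 above the filter 4 were at least 2-fold higher and 4 lower, which is 15.4% in each direction, beside 5.06% higher and 8.67% lower over all genes, and their median was -0.10. Lower were MYC, a growth-promoting factor, with 578 against 6931, TRIB1, a pseudokinase, with 2302 against 6331, EGR3, the paralogue of EGR1, with 229 against 525, and NR4A1, an orphan nuclear receptor, with 159 against 342. Their log2 ratios were -3.59 for MYC, -1.47 for TRIB1, -1.21 for EGR3 and -1.11 for NR4A1. EGR3 and NR4A1 were named because they passed the 2-fold limit, which EGR1 and FOS also passed. The nearness of their ratios is thus not read as a shared response. Of the 26 genes 18 stayed within 2-fold. Higher were KLF4, a zinc finger factor, at 1.59, CCN1, a matrix-associated signalling protein, at 1.55, DUSP4, a phosphatase of MAP kinases, at 1.41 and DUSP1, another such phosphatase, at 1.02. The DUSP1 signals were 1528 (miR-127-3p) and 746 (control). IER2, a nuclear immediate early protein, was at -0.29.

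Genes known as AP-1 targets did not share a direction. Of 27 matched 20 were above the filter, of which 3 were at least 2-fold higher, 1 was lower and 16 stayed within 2-fold, with a median of 0.03. That is 15% higher and 5% lower, beside 5.06% and 8.67% over all genes. MMP3, stromelysin, gave 523 (miR-127-3p) and a dim 21.1 (control) and was at least 5.48-fold higher. It passed the filter through its miR-127-3p signal alone, so its higher direction followed from passing. IL11, a cytokine, was 3.08-fold higher with 584 against 188, and MT2A, a metallothionein, 2.59-fold higher with 47813 against 18317. CXCL8, interleukin-8, was 2.63-fold lower with 890 against 2321, and its 2 probe sets were at -1.44 and -1.39. MMP1, a collagenase and classic AP-1 target, was dim on both arrays with 57.2 and 20.4, so no fold is given. PLAU, the urokinase gene, was below the filter with a dim 7.94 against 233 and was at least 2.79-fold lower.

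**Figure D3:**
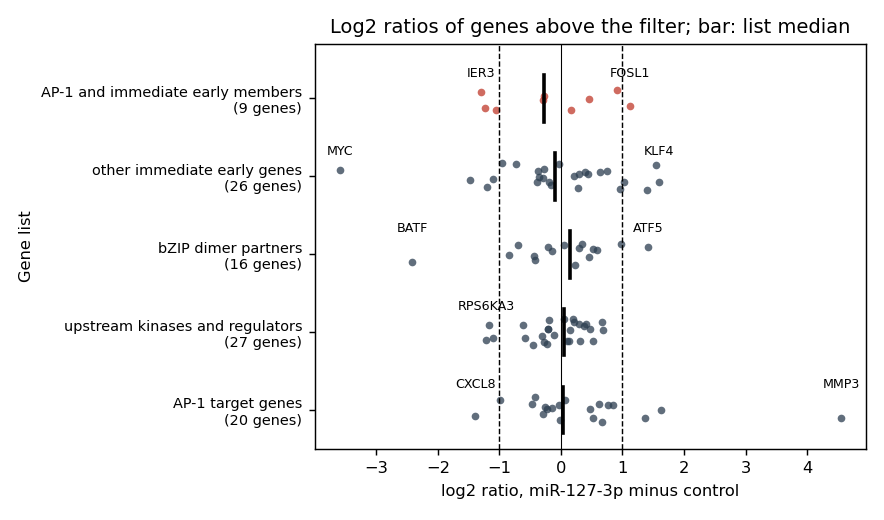
Log2 ratio (miR-127-3p minus control) of each gene above the filter, at its brightest probe set, for the 9 members above the filter and 4 lists of related genes; black bars are list medians, dashed lines mark 2-fold, and points are spread vertically for visibility alone. List medians lie between -0.28 and 0.14, and the MMP3 point, which rests on a dim control signal, supports only the lower limit of 5.48-fold.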

How the data were processed

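Total RNA (250 ng) was labelled as biotin cRNA with an Affymetrix 3′ kit, per the labels' protocols, so signals come mainly from transcript 3′ ends. The authors deposited linear probe set intensity values. The trimmed mean (2% at each end) was 500.1 on both arrays, judged from the values. How probes were summarised and background removed is not given in the sources used, and no detection calls were used. Of 54613 non-control probe sets 41091 had 1 gene symbol in the platform annotation and 1801 several. Symbols were updated through Entrez identifiers (99.9% matched, RefSeq GRCh38.p14). Gene folds use a pseudocount of 1, and "at least" folds set the dim signal to its array's median. Ratios of dim signals depend on the pseudocount and are not lower limits. That of FOSB was 1.31 with a pseudocount of 1, 0.36 with 16 and 0.21 with 32. Groups came from the genotype labels.

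The members and lists were chosen with earlier results of these data known. All probe sets of the members are described. From the other lists, genes above the filter past 2-fold were named, up to 4 per direction, with MYC, MMP1 and MMP3. Other genes named from the lists (SRF, ELK1, ELK4, NAB1, NAB2, FBXW7, COP1, IER2, PLAU and the cell markers) were chosen after their values were seen. Seed sites in transcripts were not analysed here. Alternatives were other thresholds, filters, scalings, pseudocounts, probe set rules and a floor. The procedure was tested on simulated data with planted shifts and noise of the probe set SD. That noise held no variation between cultures, so the test checks the computing and not the differences reported here. Python 3.11.15, numpy 2.4.6, pandas 2.3.3, scipy 1.17.1, statsmodels 0.14.6 and matplotlib 3.10.9 were used.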

Additional observations from a re-analysis of the deposited data

How the results depend on the processing

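No paired analysis was possible because there was 1 array per group. FOSL1, EGR1 and IER3 stayed past 2-fold in the same direction under every alternative that kept them and the 2-fold threshold, and FOSL2 stayed higher and under 2-fold in all 11. FOS stayed lower in all 11 and past 2-fold in 8. FOSB, dim on both arrays, moved from 1.31 to 0.36 and 0.21 with pseudocounts of 16 and 32 and reversed to -0.18 with a floor at each array's median, where the value is the gap between the medians alone. ATF3 went to -2.06 without cross-match probe sets, since its dim probe set then stood for it. JUND, EGR1 and IER3 gave no value there, all their probe sets carrying the suffix. The count of members at least 2-fold higher went from 2 to 1 with either pseudocount, with the floor, and, in an alternative chosen after seeing the data, with only members above the filter. At a 3-fold threshold the members counted were 0 higher and 0 lower.

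Over all genes the 607 higher and 1039 lower became 1743 and 2167 at 1.5-fold, 188 and 472 at 3-fold, 2531 and 3400 with no filter and the centre taken anew over all named genes, and 259 and 387 with a filter at the 75th percentile. Counts of the other lists that moved by over 1.5 times are given next, and smaller shifts of 1 or 2 genes are not. At 1.5-fold there were 7 other immediate early genes higher, 2 bZIP partners higher and 3 lower, 2 upstream regulators higher, and 7 AP-1 targets higher and 2 lower. At 3-fold there were 1 other immediate early gene higher and 1 lower, 0 bZIP partners higher, 0 upstream regulators lower and 0 AP-1 targets lower. With no filter there were 7 other immediate early genes higher, 2 bZIP partners higher, and 5 AP-1 targets higher and 3 lower. With the 75th percentile filter there were 2 other immediate early genes lower, 0 bZIP partners higher and 0 lower, and 1 AP-1 target higher and 2 lower. Scaling to the 75th percentile gave 2 bZIP partners higher, and the mean of probe sets gave 2 AP-1 targets lower. Without cross-match probe sets there were 2 other immediate early genes higher and 2 lower, 0 bZIP partners higher and 2 lower, and 0 AP-1 targets lower. Filters also move the centre, and IL1B went from -0.99 to -1.04 by such a shift under the 75th percentile filter. Another threshold changes counts by construction, and the causes of the remaining shifts were not tested.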
